A study of Mus musculus with 18 samples.

Results

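The distal colon of mice in the light phase of the day was compared between 12pm and 8am, 5 and 1 h after lights on, across all genes that the array measured. The 6 arrays were those titled for these times, 3 for 12pm and 3 for 8am, of 18 arrays in the series. All animals had adapted for 2 weeks to equal light and dark phases of 12 h, with food always at hand, and the tissue was taken from just above the anus after opening the abdomen. Total RNA was hybridised to Affymetrix whole-genome mouse expression arrays, which report a fluorescence signal for each probe set, a group of probes against 1 transcript. The labels used here give no strain, age or sex. They leave unstated if each array is 1 mouse, and p-values therefore cover only the spread between these samples, which may be technical. The same step of the clock in the dark, 12am (17 h after lights on) against 8pm (13 h), with 3 arrays each, shares no array with it and is set beside it for many of the results.

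The circadian clock of mammalian cells is a feedback loop of transcription. BMAL1, encoded by Arntl, pairs with CLOCK or NPAS2 and switches on the Per and Cry genes, whose proteins then shut that pair off, and also Nr1d1 and Nr1d2, nuclear receptors that repress Arntl and Npas2. Output genes such as Dbp and Tef, a pair of related transcription factors, carry the rhythm to other genes, and in the gut they are known to cycle together with digestion and with cell division in the crypts. BMAL1 and its partners bind the E-box, and DBP and TEF the D-box.

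The promoters below belong to clock genes that were higher at 12pm and to mitotic genes that were lower. Shown are those that hold, within 250 bases before a transcription start, an E-box or D-box in clock genes or TTTGAA in mitotic genes. A second Tef promoter with an E-box, and that of Ttk, a mitotic gene with an E-box, are not shown. Capitals mark the E-box CACGTG in Tef and Cipc, the D-box TTATGNAA in Per3 and the cell cycle homology element TTTGAA in Mki67 and Ube2c, each searched on both strands. The E-box reads the same on both strands and none of the 3 motifs contains another. Sequences, 5' to 3' along the gene, are from RefSeq with build GRCm38.p6.
Tef, chr15:81802423-81802672, forward strand: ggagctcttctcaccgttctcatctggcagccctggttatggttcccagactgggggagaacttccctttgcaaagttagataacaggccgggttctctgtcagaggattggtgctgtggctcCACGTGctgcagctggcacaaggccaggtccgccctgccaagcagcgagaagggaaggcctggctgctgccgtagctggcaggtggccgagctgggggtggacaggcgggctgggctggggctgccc
Per3, chr4:151044666-151044915, reverse strand: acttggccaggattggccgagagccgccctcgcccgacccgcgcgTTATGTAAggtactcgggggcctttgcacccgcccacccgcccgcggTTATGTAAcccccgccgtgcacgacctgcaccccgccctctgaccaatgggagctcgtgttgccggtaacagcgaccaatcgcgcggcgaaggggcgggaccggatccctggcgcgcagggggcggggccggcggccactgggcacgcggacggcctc
Cipc, chr12:86947093-86947342, forward strand: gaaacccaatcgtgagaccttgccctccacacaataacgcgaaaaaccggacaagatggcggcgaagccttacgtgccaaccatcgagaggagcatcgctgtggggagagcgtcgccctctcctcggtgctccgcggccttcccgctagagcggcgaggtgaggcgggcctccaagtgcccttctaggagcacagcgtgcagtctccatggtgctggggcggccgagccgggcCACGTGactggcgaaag
Mki67, chr7:135716380-135716629, reverse strand: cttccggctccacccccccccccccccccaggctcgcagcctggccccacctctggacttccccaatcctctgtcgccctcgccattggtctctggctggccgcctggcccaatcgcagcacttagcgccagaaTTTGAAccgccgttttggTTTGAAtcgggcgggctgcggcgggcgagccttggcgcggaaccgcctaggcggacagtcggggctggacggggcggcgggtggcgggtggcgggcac
Ube2c, chr2:164769679-164769928, forward strand: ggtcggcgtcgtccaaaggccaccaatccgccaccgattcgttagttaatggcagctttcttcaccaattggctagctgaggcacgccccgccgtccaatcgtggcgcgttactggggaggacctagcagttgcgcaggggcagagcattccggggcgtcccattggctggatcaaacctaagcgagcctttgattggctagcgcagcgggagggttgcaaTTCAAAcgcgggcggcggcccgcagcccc
The E-box stood in 4 of 11 clock output and 3 of 12 core clock genes with a promoter in the table, taking the first promoter listed per gene, against 8.24% of the 10323 tested genes with one. The D-box stood in 1 and 2 of them, against 1.83%. The TTTGAA element stood in 7 of 20 mitotic genes with a promoter, against 10.8%. Of the clock genes called higher at 12pm, 8 had a promoter in the table, 2 of them with an E-box and 1 with a D-box. A match is a description of the letters and not evidence of binding.

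Across the array, 1380 of 12870 genes differed between 12pm and 8am in limma, a linear model with a spread moderated over genes, at a Benjamini-Hochberg adjusted p under 0.05. That is 10.7% of the genes tested, 714 of them higher at 12pm (5.55%) and 666 lower (5.17%). The median log2 difference of the genes called higher was 0.92, with a range of 0.39 to 5.46, and that of the genes called lower was -0.74, down to -4.53. In all 3591 genes, 27.9%, had an unadjusted p under 0.05. The 3 arrays of 12pm lay all above the 3 of 8am in 20% of all genes and all below them in 15.2%. The count rests on few arrays. It was 628 without 8am a, 527 without 8am c, 680 without 12pm a and 575 without 12pm c. When the 4pm and 4am arrays were added to the fit it was 182. The 3' over 5' ratio of the Gapdh control, a sign of RNA integrity, was 34.3 and 2.33 in 4pm b and c. In 4am a and b the ratio was 36 and 18.2, while 4pm a and 4am c had 0.867 and 0.75. The part of RNA integrity in the lower count was not tested.

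Most of the called genes had the same sign 12 h later. By the mean correlation of log2 signals, 8am and 8pm arrays were alike (r = 0.965, against 0.968 among the 8am arrays). Those of 12pm correlated with 8am at 0.934, with 8pm at 0.935 and with 12am at 0.928, and those of 12am with 8am at 0.891 and with 8pm at 0.900. The 12pm arrays were thus no closer to 12am than to 8am or 8pm. The dark step, 12am minus 8pm, called 2802 genes, 21.8%, with 11.6% higher and 10.1% lower at 12am. Of the 1380 genes called in the light, 1316 (95.4%) had the same sign in the dark and 819 (59.3%) were also called there with that sign, against a same sign in 73.8% of all genes. In the opposite direction lay 64, of which 5 were also called in the dark. No label names a batch, so a 12 h pattern in the tissue and a difference in handling between the arrays of these times cannot be told apart. For the Gapdh control probe sets the 3' over 5' ratio, a sign of RNA integrity, was 0.746 to 0.810 at 12pm and 0.803 to 0.873 at 8am.

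The difference also moved with the level of the signal. The brightest probe set of an array reached 17400 to 20700 at 12pm and 26500 to 31400 at 8am, while the median over all probe sets was 187 to 220 at 12pm and 160 to 183 at 8am. With the genes cut into 5 equal groups by mean level, the median log2 difference was 0.32 in the lowest group and -0.13 in the highest. The dark step had 0.42 and -0.20 in the same groups. After quantile normalization, which gives all arrays the same distribution, the light values were 0.07 and 0.02. Then 973 genes were called, 465 higher and 508 lower, of which 831 were shared with the deposited scaling. The median of all genes was 0.06 with the deposited scaling and 0.02 after quantile normalization.

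**Figure D1:**
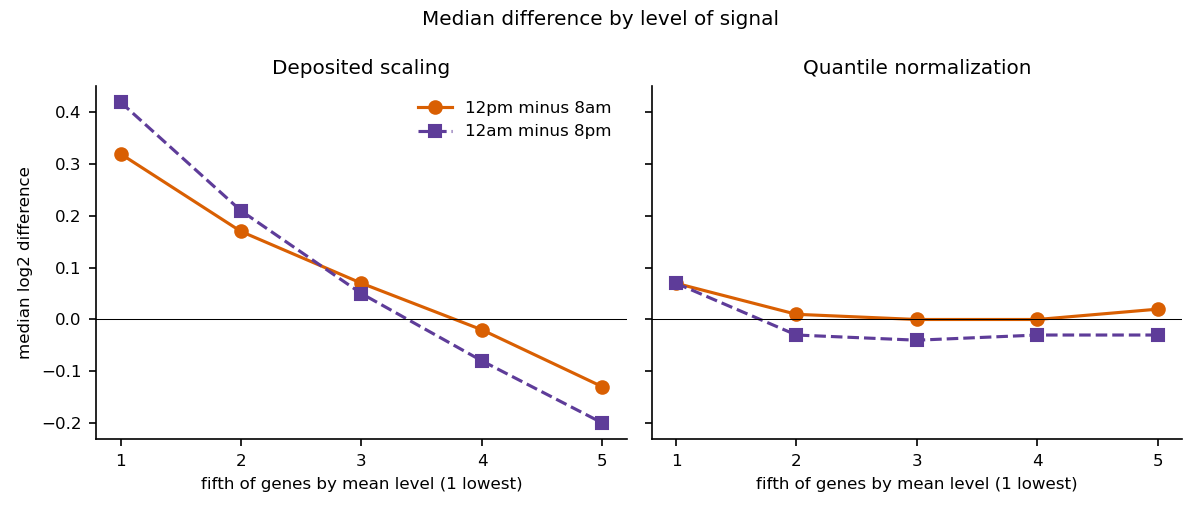
Median log2 difference of the genes in 5 equal groups by mean level, from lowest (1) to highest (5), for 12pm minus 8am (circles) and 12am minus 8pm (squares), with the deposited scaling on the left and after quantile normalization on the right. With the deposited scaling both steps ran downward with level, the light step between 0.32 and -0.13, and after quantile normalization the light step lay between 0 and 0.07.

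A test of the difference between both steps, (12pm minus 8am) minus (12am minus 8pm), removes whatever the 12pm and 12am arrays share against the 8am and 8pm arrays. It called 0 genes in limma, and 1144 (8.89%) had an unadjusted p under 0.05. Without 8am c it called Dbp, Gpat4, Nr1d1, Nr1d2 and Slc36a1, without 8pm c Dbp and Nr1d2, and without 12am b Nr1d2 and Plk3. It called Med18 without 8am a, Cyp2e1 without 8am b, Agps without 12am a and Tff2 without 12am c. With array weights, and all 12 arrays in the fit, it called 18 genes, among them Nr1d2, Dbp, Tef, Cyp2e1 and Agps. Nr1d2 and Dbp had the lowest p-values of all genes.

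**Figure D2:**
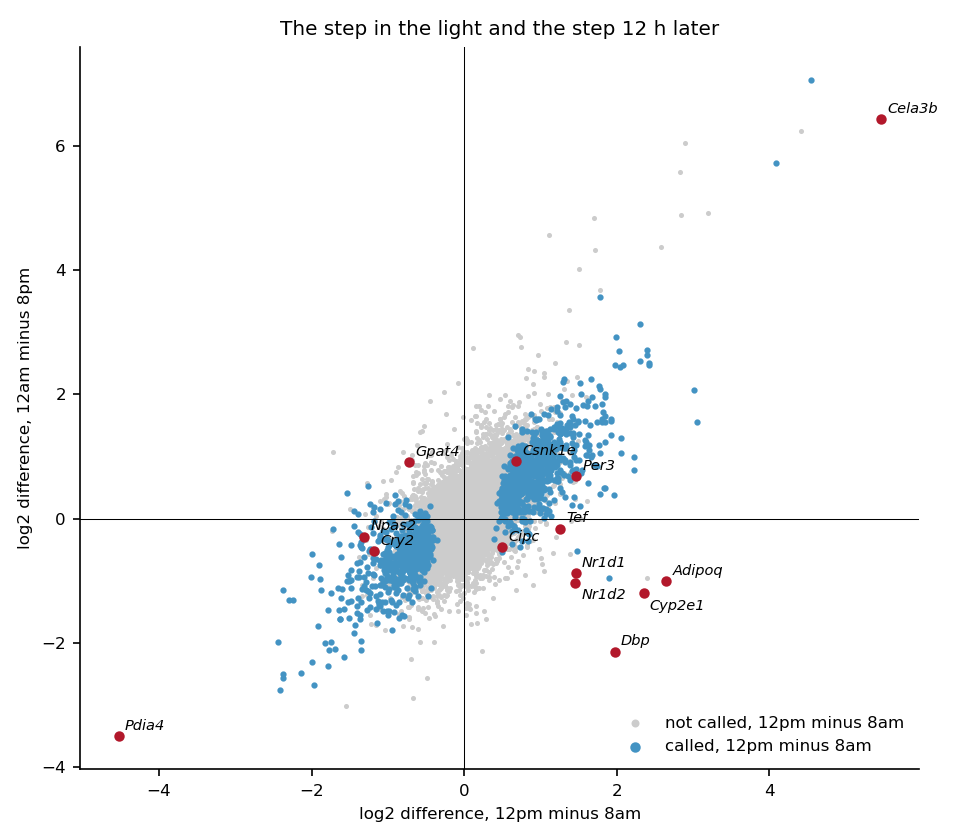
Log2 difference of each of 12870 genes at 12pm minus 8am (x axis) and at 12am minus 8pm (y axis). Blue points were called at 12pm minus 8am, grey points were not, and red points are named genes. Most blue points lie in the quadrants where both steps have the same sign, while Dbp, Nr1d1, Nr1d2, Adipoq and Cyp2e1 lie at lower right, with a positive difference in the light and a negative one in the dark.

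Clock genes were among the called genes in both directions. Of 15 tested core clock members 5 were higher at 12pm and 2 lower, and of 13 tested clock outputs 3 were higher and none lower, against 5.55% and 5.17% of all genes. The median log2 difference of the core clock list was -0.07 and that of the outputs 0.03, so the members did not move one way. Without 8am a the core clock held 4 calls, without 12pm a 3, and with all 18 arrays in the fit 2.

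Gene positions are given on build GRCm38.p6. Dbp (chr7:45705100-45710203) had signals of 1541, 863 and 725 at 12pm, against 149, 152 and 588 at 8am. All 12pm arrays lay above all 8am arrays, and 8am c was well above 8am a and b. Dbp was 3.93-fold higher at 12pm, a log2 difference of 1.97 ± 0.48 (SE, n = 3 each, limma adjusted p = 0.02). Its second probe set also had a log2 difference of 1.97. In the dark Dbp went the other way, with 935, 729 and 611 at 12am and 4890, 4907 and 1568 at 8pm, a log2 difference of -2.14 (limma adjusted p = 0.00788). The difference between the steps was 4.12 ± 0.68 on the log2 scale and did not pass (limma adjusted p = 0.119). The call in the light was lost without 8am a (0.0843), 8am b (0.0615) or 12pm a (0.0797).

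Tef (chr15:81802673-81826863) stood at 2019, 1495 and 1452 at 12pm, against 633, 602 and 811 at 8am, with no overlap. The difference was 1.26 ± 0.20 on the log2 scale (limma adjusted p = 0.00238) and was kept whichever of the 12 arrays was left out. A dimmer probe set of Tef had 0.53 and was not called. In the dark Tef had 2720, 2527 and 1896 at 12am and 2748, 3239 and 2046 at 8pm, with overlap and a log2 difference of -0.16. The 8am arrays were the lowest of the 12. Hlf, the third member of that family, had -0.11 in the light and was not called (limma adjusted p = 0.761).

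Nr1d2 and Nr1d1, the heme-responsive repressors of the loop, were both higher at 12pm. Nr1d2 (chr14:18204056-18239106) had 3425, 2617 and 3012 at 12pm, against 1063, 870 and 1386 at 8am, without overlap. It was 2.74-fold higher (log2 difference 1.45 ± 0.26, limma adjusted p = 0.00408), and was called in all 12 fits that left out 1 array, with 1.29 to 1.63. In the dark it was lower, with 1251, 2272 and 2209 at 12am and 4551, 4681 and 2525 at 8pm (log2 difference -1.03, limma adjusted p = 0.0141). The difference between the steps, 2.48 ± 0.37, had the lowest p of all genes but did not pass (limma adjusted p = 0.0867). Nr1d1 (chr11:98767932-98775377) had 1919, 1351 and 1450 at 12pm, against 438, 348 and 1120 at 8am. As with Dbp, 8am c stood between its group and the 12pm arrays. Nr1d1 differed by 1.46 ± 0.32 (limma adjusted p = 0.0116), and the call was lost without 8am a (0.0523) or 12pm a (0.05 after rounding). It had the highest signals of the 12 arrays at 12pm, with 258, 422 and 373 at 12am and 642, 642 and 635 at 8pm.

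Per3, a period gene, had the lowest p of the clock genes. Per3 (chr4:150997018-151044707) stood at 947, 1067 and 854 at 12pm, against 270, 380 and 363 at 8am, a log2 difference of 1.47 ± 0.18 (limma adjusted p = 0.000368). All 4 of its probe sets were higher, by 0.48 to 1.94 on the log2 scale. Unlike Dbp, Per3 was also higher in the dark step, at 1026, 958 and 907 at 12am and 554, 725 and 513 at 8pm (log2 difference 0.69, limma adjusted p = 0.0150). Its levels at 12pm and 12am overlapped. Of the other period genes, Per2 had 308, 216 and 235 at 12pm and 388, 393 and 272 at 8am, with overlap and no call (log2 difference -0.44), and its 2 dimmer probe sets went the other way, at 0.46 and 0.51. Per1 had overlapping signals and 0.09.

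Npas2 and Cry2 were lower at 12pm. Npas2, a partner of BMAL1 (chr1:39193702-39363240), had 256, 274 and 471 at 12pm, against 792, 1035 and 678 at 8am, without overlap. It was lower by 1.31 on the log2 scale (-1.31 ± 0.26, limma adjusted p = 0.00765), and was kept in all 12 fits that left out 1 array. Its dark levels, 222, 278 and 376 at 12am and 326, 293 and 459 at 8pm, were like those of 12pm, so 8am alone stood high. Arntl had 1020, 995 and 1579 at 12pm and 1365, 1843 and 1318 at 8am and was not called (log2 difference -0.35, limma adjusted p = 0.317). A second probe set of Arntl had -0.97 and passed when limma tested each probe set on its own (adjusted p = 0.0182). Cry2 (chr2:92403646-92434085), a repressor of the loop, had 164, 122 and 189 at 12pm and 262, 440 and 454 at 8am (log2 difference -1.18 ± 0.29, limma adjusted p = 0.0213). That call was lost without 8am b, 8am c, 12pm a or 12pm b (0.0517 to 0.0942). Its relative Cry1 had 125, 195 and 216 at 12pm and 508, 427 and 204 at 8am and just missed (log2 difference -0.96, limma adjusted p = 0.0568).

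The 3 other clock calls were weaker. Cipc, which binds CLOCK and inhibits it, had 2161, 1977 and 2100 at 12pm and 1519, 1331 and 1558 at 8am (log2 difference 0.50 ± 0.15, limma adjusted p = 0.0493), and a dark difference of -0.46. Its 2 dimmer probe sets had 0.66 and 0.61. Csnk1e, a kinase that marks PER proteins for breakdown, had 590, 533 and 733 at 12pm and 282, 448 and 420 at 8am (log2 difference 0.68 ± 0.19), with the same sign in the dark (0.93). A second probe set of Csnk1e, nearly as bright, had 0.12 in the light, where it was not called, and 0.14 in the dark. Rora, the activator that competes with Nr1d1, had 610, 568 and 645 at 12pm and 354, 442 and 412 at 8am (0.58 ± 0.16), but its 5 dimmer probe sets lay between -0.74 and 0.39 and the mean over its probe sets was -0.02. Leaving out 1 array ended the call of Cipc for 9 of the 12 arrays (limma adjusted p 0.0543 to 0.138, kept without 8pm c, 12am a or 12am b). It ended that of Csnk1e for 8am a, 8am c, 12pm a, 12pm c and 8pm a (0.0502 to 0.145), and that of Rora for those and 12pm b (0.0505 to 0.126). The members not called had log2 differences between -0.96 and 0.38. Among them Wee1, a kinase that restrains entry into mitosis, had 697, 674 and 866 at 12pm, all below the 1004, 1334 and 1011 at 8am (-0.57 ± 0.20, limma adjusted p = 0.0803). Its second probe set went the other way, at 0.75, and the mean over probe sets gave 0.09.

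**Figure D3:**
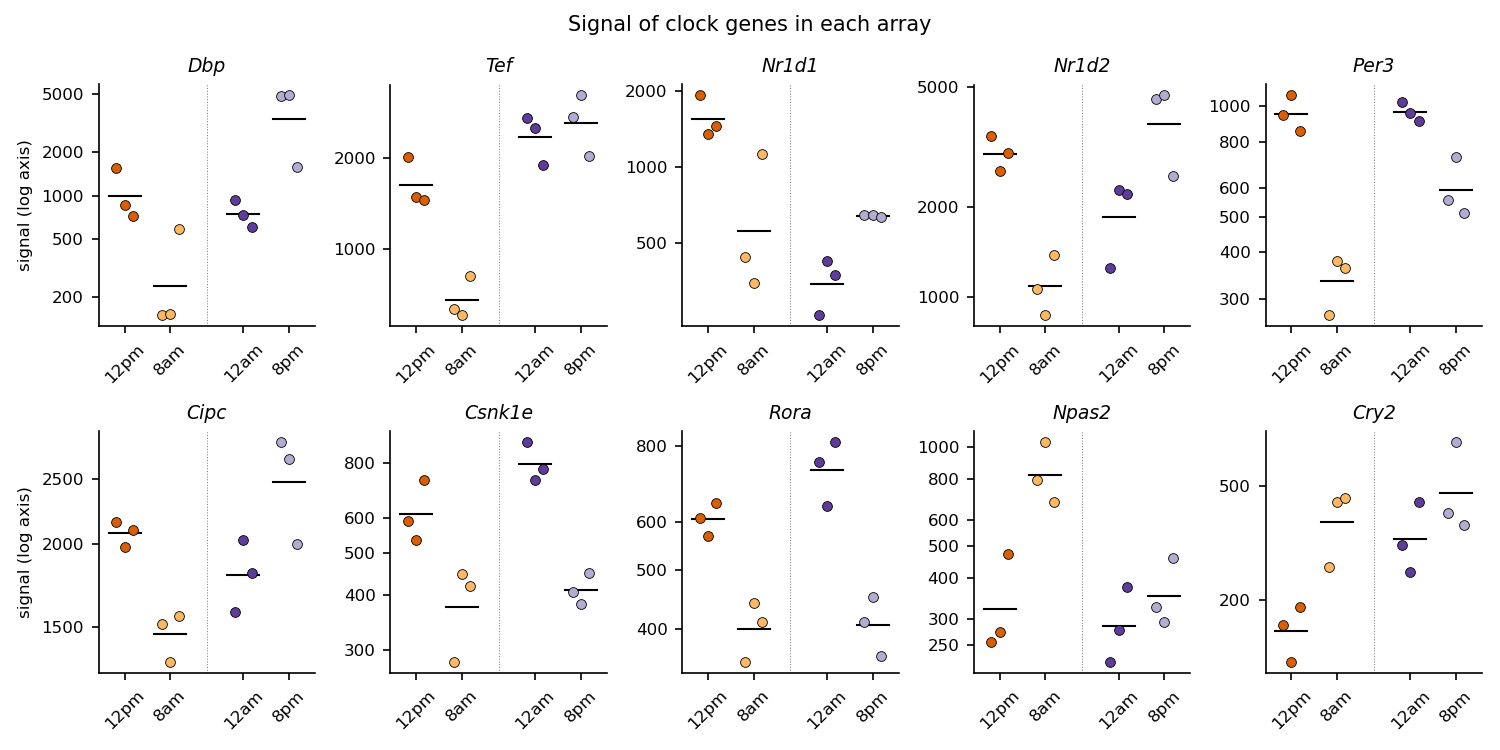
Signal on a log axis of the 10 clock genes called between 12pm and 8am, in each of 3 arrays at 12pm, 8am, 12am and 8pm, with the geometric mean as a line. The 12pm arrays lie above the 8am arrays in Dbp, Tef, Nr1d1, Nr1d2, Per3, Cipc, Csnk1e and Rora and below them in Npas2 and Cry2, and the mean at 12am lies below that at 8pm in all of them but Per3, Csnk1e and Rora.

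Besides the clock genes, 10 genes per direction with the lowest unadjusted p in the difference between the steps were taken, none of which passed, and some are given here. Sft2d1, a protein of vesicle transport, had 2084, 2112 and 2144 at 12pm and 1442, 1567 and 1478 at 8am, without overlap (log2 difference 0.50 ± 0.12, limma adjusted p = 0.0226). In the dark it was lower, with 1241, 1474 and 1378 at 12am and 1886, 2153 and 1887 at 8pm (-0.53, limma adjusted p = 0.00961). Its call in the light was lost without 8am a, 8am c or any 1 of the 12pm arrays. Med18, a subunit of the Mediator complex, had 537, 859 and 1167 at 12pm and 442, 145 and 135 at 8am (1.90 ± 0.37, limma adjusted p = 0.00709). In the dark Med18 had 365, 623 and 335 at 12am and 748, 820 and 939 at 8pm, which was not called (-0.95, limma adjusted p = 0.0806). Pim3, a survival kinase, had 1939, 1441 and 2283 at 12pm and 851, 387 and 845 at 8am, a called log2 difference of 1.48 ± 0.27 (limma adjusted p = 0.00493). In the dark it had 1196, 952 and 896 at 12am and 1672, 1662 and 1093 at 8pm, with overlap. Zfp36 was not called in the light (0.45, limma adjusted p = 0.0647) and was lower in the dark (-0.63, limma adjusted p = 0.00968). Zfp36, which speeds the decay of inflammatory messenger RNAs, had 2634, 2696 and 2560 at 12pm, all above the 1927, 2009 and 1820 at 8am. At 12am Zfp36 had 1163, 1712 and 1581, all below the 2088, 2227 and 2554 at 8pm. Gpat4, which starts glycerolipid synthesis, had 404, 379 and 387 at 12pm and 818, 671 and 502 at 8am (log2 difference -0.72 ± 0.20, limma adjusted p = 0.0339), and 0.91 in the dark. The call of Gpat4 in the light was lost without 8am a, 8am b or any 1 of the 12pm arrays (0.0726 to 0.137). Fxyd4, a regulator of the sodium pump in colon and kidney, had 5648, 4455 and 5058 at 12pm and 8270, 8960 and 8672 at 8am (-0.78 ± 0.15, limma adjusted p = 0.00634), with 7348, 6244 and 6539 at 12am and 4817, 5391 and 7213 at 8pm. None of these passed in the difference itself, with limma adjusted p of 0.119 to 0.203 for Sft2d1, Gpat4, Med18, Pim3, Zfp36 and Fxyd4.

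Some mitosis genes were lower at 12pm. Of 25 tested mitosis members 24 had a negative log2 difference, and 5 were called lower and none higher (20%, against 5.17% of all genes). Their median was -0.55, against 0.06 over all genes, and -0.63 after quantile normalization. In 7 of 25 the groups did not overlap and 12pm was lower, against 15.2% of all genes. In the dark step the median was 0.22, but of the 5 called genes Mki67 (-0.45), Birc5 (-0.25), Ube2c (-0.23) and Cenpf (-0.04) kept the negative sign there and Ttk (0.16) did not. The median of the difference between the steps was -0.89, and 12 of 25 members had an unadjusted p under 0.05 there, against 8.89% of all genes. The number called lower was 2 without 8am c or 12pm c, 3 without 8am a, 8 without 12pm b, 9 without 8am b, and 2 with all 18 arrays in the fit. With 1 array left out the median lay between -0.86 and -0.45.

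Mki67, the proliferation marker Ki-67 that coats mitotic chromosomes, had 1235, 1203 and 805 at 12pm, against 3256, 1904 and 3316 at 8am, without overlap. It was 2.56-fold lower (log2 difference -1.35 ± 0.26, limma adjusted p = 0.00587). Birc5, or survivin, a subunit of the complex that corrects chromosome attachment, had 683, 1033 and 547 at 12pm and 2366, 1197 and 2437 at 8am (-1.37 ± 0.27, limma adjusted p = 0.00713). In both genes 8am b was the lowest of the 8am arrays, as it was in 21 of the 25 members, and the calls of both held in all 12 fits that left out 1 array. Ttk, a spindle checkpoint kinase, had 197, 165 and 97.2 at 12pm and 315, 321 and 376 at 8am (-1.11 ± 0.27). Cenpf, a kinetochore protein, had 459, 292 and 317 at 12pm and 888, 675 and 895 at 8am (-1.18 ± 0.32). Ube2c, which tags mitotic proteins for breakdown, had 746, 1106 and 650 at 12pm and 3102, 894 and 2397 at 8am, which overlap (-1.20 ± 0.36, limma adjusted p = 0.0469). The calls of Ttk were lost without 8am c or 12pm c, those of Cenpf without 8am a, 8am c, 12pm b or 12pm c, and that of Ube2c without any of 8 arrays. Second probe sets of Ttk and Cenpf had 0.21 and 0.29 and were not called.

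Kif11, the motor that pushes spindle poles apart, had 339, 396 and 279 at 12pm and 500, 493 and 652 at 8am. In the dark Kif11 had 313, 404 and 554 at 12am and 211, 245 and 306 at 8pm, so the groups did not overlap in either step and the signs were opposite. Kif11 was not called in the light (log2 difference -0.67, limma adjusted p = 0.0702). Its difference between the steps was -1.36 on the log2 scale (limma adjusted p = 0.272). Dimmer probe sets of Kif11 had -0.82 and -0.84 in the light, where they were not called, and -0.2 and 0.28 in the dark. The signs were thus not opposite in the brighter of these, whose difference between the steps was -0.61. Averaged over the list on the log2 scale, the mitosis genes stood at 9.01, 9.40 and 8.80 at 12pm and 9.84, 9.34 and 9.94 at 8am, which overlap. Of the DNA replication genes 1 of 23 tested members was lower (4.35%, near the 5.17% of all genes) and none higher, with a median of -0.06. That member, Gins2, part of the replicative helicase, had 89.5, 113 and 77.6 at 12pm and 497, 508 and 294 at 8am (log2 difference -2.01 ± 0.54, limma adjusted p = 0.0296), and was lost without any 1 of these 6 arrays. In bulk tissue fewer dividing cells and less RNA per cell cannot be told apart. Crypt base and Wnt target genes had 0 of 15 members called, against 10.7% of all genes, and a median of 0.02.

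**Figure D4:**
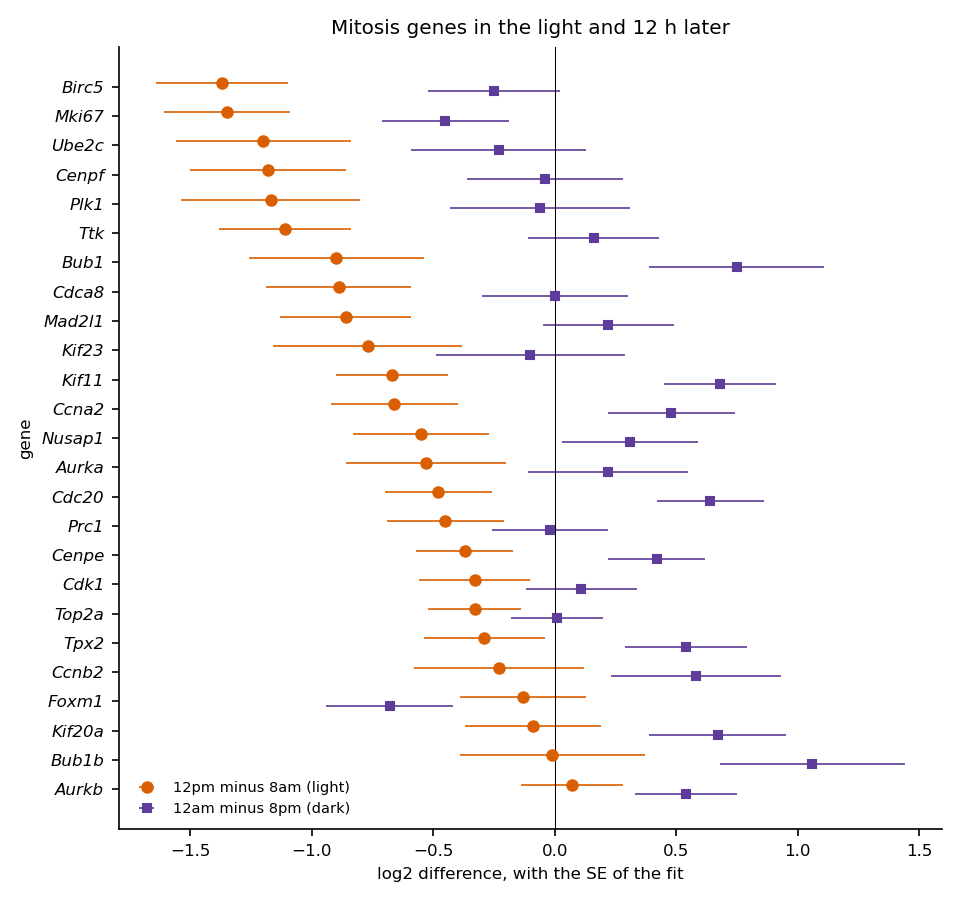
Log2 difference of the 25 tested mitosis genes at 12pm minus 8am (circles) and 12am minus 8pm (squares), with the SE of the fit as bars, ordered by the light step. In the light 24 of 25 lie below 0, with a median of -0.55, and in the dark the median is 0.22.

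Of the 15 genes named as lowest at 12pm, all had the same sign in the dark. Pdia4, a protein disulfide isomerase of the endoplasmic reticulum, led them (chr6:47796141-47813512). It had 108, 21.2 and 28.5 at 12pm, against 1177, 1561 and 1321 at 8am, and was 23.1-fold lower (log2 difference -4.53 ± 0.35, limma adjusted p = 1.67e-05). The same split appeared in the dark, with 138, 102 and 109 at 12am and 1376, 1216 and 1919 at 8pm. Rnasek, a ribonuclease, had 339, 631 and 269 at 12pm and 2367, 2014 and 2058 at 8am (-2.42 ± 0.35). Cap1, which recycles actin monomers, had 452, 239 and 441 at 12pm and 1015, 2411 and 2556 at 8am (-2.30 ± 0.37). Tm7sf2, a reductase of cholesterol synthesis, had 280, 572 and 347 at 12pm and 2666, 1515 and 2103 at 8am (-2.37 ± 0.35). Haus1, a subunit of the spindle complex augmin, had 43, 55.1 and 53.8 at 12pm and 384, 284 and 378 at 8am. The rest were Ddias, Upb1, Ciapin1, Cyp2d26, Gins2, Fbxl18, Gsdme, Mllt1, Terf2ip and Cenpw, of which Mllt1 lost its call without 8am c (limma adjusted p = 0.0590). Where a second probe set existed it did not always agree. That of Gsdme had 0.70, and the 3 other sets of Ciapin1 lay between -0.16 and 0.63.

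Of the 15 genes named as highest at 12pm, 13 also had the same sign in the dark. Adarb1, an RNA editing enzyme, had 718, 624 and 453 at 12pm, against 99.2, 98.7 and 98.8 at 8am (log2 difference 2.39 ± 0.25). In the dark it had 717, 1539 and 1286 at 12am and 156, 164 and 154 at 8pm. Pcp2, known from Purkinje neurons, had 497, 459 and 540 at 12pm and 106, 15.3 and 46 at 8am (3.05 ± 0.39), and Foxd4, a forkhead factor, 197, 261 and 372 at 12pm and 19.8, 16.9 and 20.8 at 8am. Cyp26a1, which breaks down retinoic acid, had 443, 261 and 326 at 12pm and 39.1, 75.5 and 56.1 at 8am. Slc2a12, Spata3, Rnf151, Ankrd2, Sp6, Cytl1 and Trhr were also in this group. Their 8am signals were at most 300, and the values used here carry no call of presence to say which lie at background. Sp6 had a second probe set at -0.10 and reversed to -0.11 when a constant of 1 was added before the logarithm, and Adarb1 a second set at 0.58 that was not called. The call of Trhr was lost without 8am c or 12pm c (limma adjusted p 0.0787 to 0.0831).

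Adipoq and Cyp2e1, the 2 exceptions, were higher at 12pm and had a negative difference in the dark that was not called (-1.01, limma adjusted p = 0.287, and -1.20, limma adjusted p = 0.0861). Adipoq, the hormone adiponectin made by fat cells, had 999, 726 and 552 at 12pm, against 11.4, 405 and 133 at 8am (log2 difference 2.65 ± 0.66, limma adjusted p = 0.0220). In the dark it had 239, 216 and 283 at 12am and 660, 696 and 284 at 8pm. Cyp2e1, an ethanol and xenobiotic oxidase of liver and fat, had 1454, 791 and 748 at 12pm and 75.5, 496 and 131 at 8am (2.35 ± 0.49, limma adjusted p = 0.00875), with 471, 467 and 479 at 12am and 1334, 1628 and 620 at 8pm. The lowest array of both was 8am a. The call of Adipoq was lost without 8am c (0.0555) or 12pm a (0.0742), and that of Cyp2e1 in none of the 12 such fits. Of 8 tested fat cell markers 2 were called higher, Adipoq and the receptor Acvr1c, against 5.55% of all genes. Acvr1c was also higher in the dark (1.34), where the list median was -0.01. All 8 had a positive sign in the light, and the summed signal of the 12 on the array was 5516 to 7586 at 12pm and 3797 to 5508 at 8am. Fabp4, a fatty acid carrier of these cells, had 1907, 1108 and 1792 at 12pm and 749, 1135 and 876 at 8am, with overlap and no call. The part of fat cells in these results was not tested.

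Pancreatic digestive enzymes had the highest differences of all. Cela3b, an elastase (chr4:137421008-137430520), had 1176, 540 and 7728 at 12pm, against 34.2, 24.7 and 13.4 at 8am (log2 difference 5.46 ± 1.09, limma adjusted p = 0.00723). Its 4 probe sets were all higher, by 1.01 to 5.46. Cela2a, a related elastase, had 568, 327 and 2736 at 12pm and 48.3, 12 and 7.81 at 8am (4.55 ± 1.16), and Cpb1, a carboxypeptidase, 491, 123 and 2468 at 12pm and 12.2, 26.3 and 14.6 at 8am (4.08 ± 1.21). Of 14 tested pancreas markers these 3 were called, against 5.55% of all genes, and 13 had a positive sign. In all 3 called genes 12pm c was the highest of the light arrays. The summed signal of all 14 markers was 28114 to 52823 at 12pm and 19046 to 32191 at 8am. At 12am it was 102666, 292664 and 29015, against 23935 to 33767 at 8pm, so single arrays carried most of it. Cela1 and Sycn, which were not called, were bright in every array, with 12454 and 16921 of the sum of 35590 in 12pm a. Cela2a lost its call without 8am b, 8am c, 12pm a or 12pm c (0.0503 to 0.107), and Cpb1 without any of 8 arrays (0.0548 to 0.185). Whether pancreatic tissue or RNA entered these arrays was not tested.

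**Figure D5:**
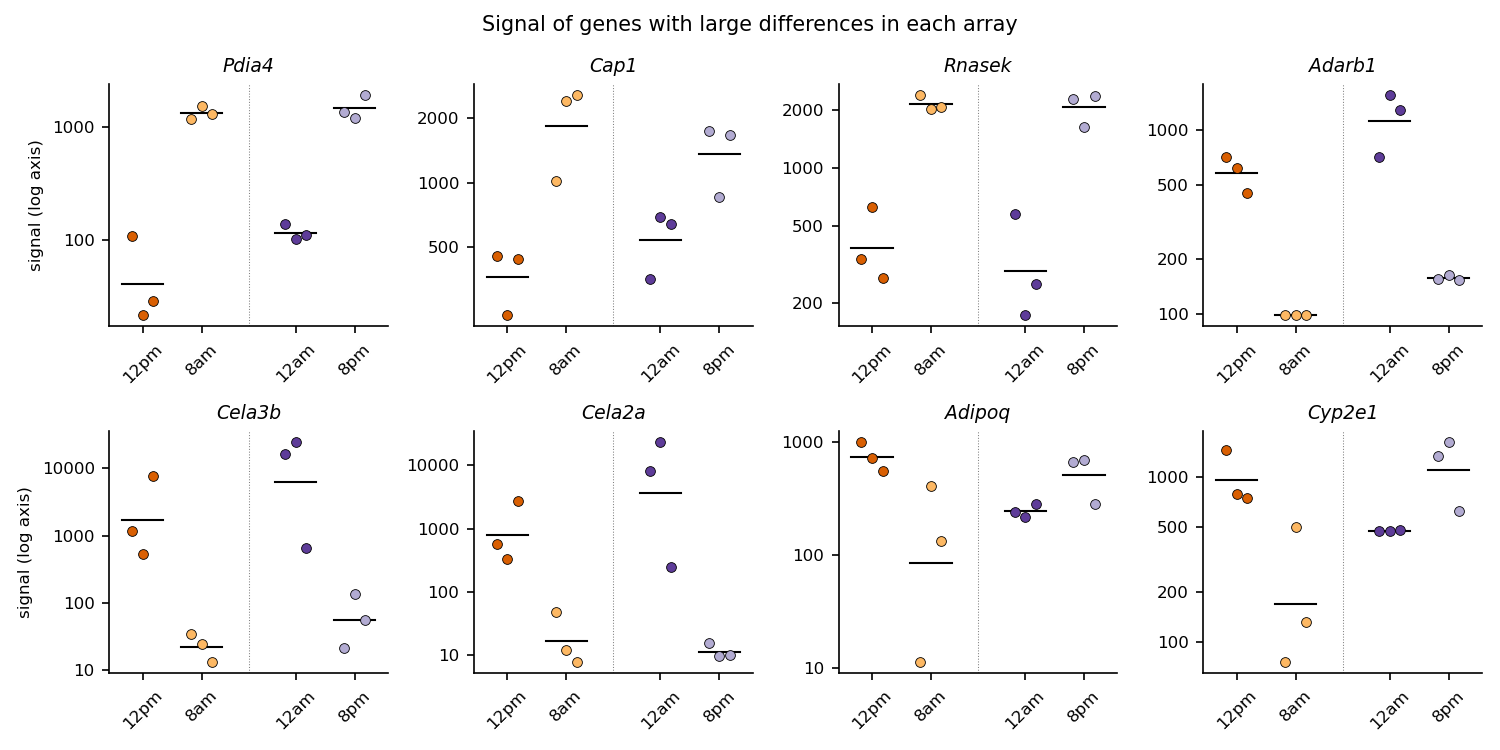
Signal on a log axis of 8 genes with large differences, in each of 3 arrays at 12pm, 8am, 12am and 8pm, with the geometric mean as a line. Pdia4, Cap1 and Rnasek are low and Adarb1, Cela3b and Cela2a high at both 12pm and 12am, while the means of Adipoq and Cyp2e1 lie higher at 12pm than at 8am and below those of 8pm at 12am, the dark difference not being called.

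Genes of protein folding in the endoplasmic reticulum were lower at 12pm in 4 of 22 tested members, against 5.17% of all genes, and higher in 1, with a median of -0.20 that became -0.05 after quantile normalization. After Pdia4 came Pdia3, a related isomerase, with 6387, 6394 and 4720 at 12pm and 13212, 11592 and 14170 at 8am (log2 difference -1.16 ± 0.14, limma adjusted p = 0.000372). Sdf2l1, a chaperone partner, had 530, 482 and 462 at 12pm and 1864, 1193 and 1262 at 8am (-1.49 ± 0.30). After quantile normalization they had -0.91 and -1.53. A second probe set of Pdia3 went the other way, at 0.42. The lectin chaperone Canx was also called lower (-0.67), and Ddit3, a factor induced by prolonged stress, higher (1.05 ± 0.32, limma adjusted p = 0.0469). Ddit3 was named after its values were seen. The classic markers Hspa5 and Xbp1 had -0.48 and -0.14 and were not called. In the dark Pdia3 had -1.46, and the list 3 members lower and 1 higher, against 10.1% and 11.6% of all genes.

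Several lists of abundant transcripts held more genes called lower at 12pm than the 5.17% of all genes, but their medians were near 0 after quantile normalization. Of 37 ribosomal proteins 15 were lower and none higher, with a median log2 difference of -0.41 that became -0.01. Rps24 had 14759, 14969 and 12069 at 12pm and 21483, 20419 and 25362 at 8am (-0.69 ± 0.14, and -0.25 after quantile normalization). Other bright probe sets of Rps24 had -0.78, -0.73 and -0.64, but dimmer ones had 1.84 and 0.61. The set at 1.84 passed when limma tested each probe set on its own (adjusted p = 0.0143). Of 20 colon epithelium markers 6 were lower, with a median of -0.29 that became 0.05. Ceacam1, a cell adhesion molecule of the epithelial surface, had 15776, 14874 and 12699 at 12pm and 21288, 21191 and 22323 at 8am (-0.59 ± 0.12, and -0.15). Of 12 goblet cell markers 3 were lower, Zg16, Fcgbp and Clca1, all secreted into mucus, with a list median of -0.30 that became -0.01. The epithelial markers Cdx2, Cdh1 and Krt20 were measured in every array and were not called. Of 35 respiratory chain genes 6 were lower (median -0.22, then 0), of 16 translation factors 4 (median -0.26, then 0.01), of 22 cytoskeleton genes 7 (median -0.27, then 0.03) and of 18 glycolysis genes 5 (median -0.07, then -0.01), with 9 glycolysis genes above and 9 below 0. In the antimicrobial list Lypd8, Pigr and Saa1 were lower and Lyz1 higher, of 9 tested with a median of 0.22. No member of the ribosomal protein, colon epithelium or goblet lists was called higher by the probe set that stood for it.

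Some members kept a difference after quantile normalization. Pfn1, which feeds actin to growing filaments, had 5587, 5781 and 4928 at 12pm and 14340, 14715 and 16359 at 8am, a log2 difference of -1.48 ± 0.14 and of -1.19 after it. Among 30 proteasome genes 7 were lower, against 5.17% of all genes, and none higher, with a median of -0.24 and of -0.18 after it. Psma4, a subunit of the core ring, had 4956, 4553 and 3939 at 12pm and 11249, 10290 and 10062 at 8am (-1.23 ± 0.14, and -1.02). Of 26 ribosome biogenesis genes 3 were lower and 2 higher, against 5.17% and 5.55% of all genes (median -0.10, then -0.14). Among 38 spliceosome and RNA-binding genes 7 were lower and none higher (median -0.16, then -0.09). Hnrnpl, a splicing regulator, had 410, 313 and 278 at 12pm and 759, 857 and 856 at 8am (-1.28 ± 0.19, and -1.37), and Snrpe, a core protein of spliceosomal RNA particles, -0.98 and -0.83. Pfn1, Psma4, Hnrnpl and Snrpe were lower in the dark step as well (-1.12, -1.20, -0.77 and -0.99).

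Single genes of the mucosa and its nerves were higher at 12pm. Cldn23, a claudin of the tight junction, had 2767, 3528 and 2659 at 12pm, against 1364, 1554 and 1547 at 8am (log2 difference 0.99 ± 0.20, limma adjusted p = 0.00774). In the dark it had 0.33 and was not called. The tight junction list had 3 of 14 members higher, also Cldn15 and Cgn, and 1 lower, Cldn7, whose difference of -0.43 was -0.05 after quantile normalization, against 5.55% of all genes higher and 5.17% lower. Vip, a neuropeptide that relaxes gut muscle and drives secretion, had 2064, 1789 and 2291 at 12pm and 888, 1275 and 1047 at 8am (0.93 ± 0.17, limma adjusted p = 0.00478). Tac1, the precursor of substance P, had 1523, 1631 and 1575 at 12pm and 961, 1221 and 897 at 8am (0.62 ± 0.16), and Kit, the receptor of pacemaker cells, 1259, 1492 and 1590 at 12pm and 725, 946 and 843 at 8am (0.78 ± 0.18). In the dark these 3 genes had 0.44, -0.10 and 0 and none was called. Of 13 enteric neuron and glia markers these 2 peptides were called higher, against 5.55% of all genes, and none lower. The list median was 0.21, and 0.09 after quantile normalization. The summed signal of the 16 on the array was 7057 to 8548 at 12pm and 4865 to 6758 at 8am. Of 4 tested pacemaker cell markers Kit alone was called, and 2 had a positive and 2 a negative sign. The summed signal of the 5 on the array was 10039 to 11559 at 12pm and 10804 to 14020 at 8am, which overlap.

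Markers of connective tissue were higher for some members. Of 18 fibroblast and matrix genes 3 were higher, against 5.55% of all genes, and none lower, with a median of 0.31 and of 0.48 after quantile normalization. Col6a3, a chain of collagen VI, had 2689, 2600 and 2736 at 12pm and 1184, 1636 and 1474 at 8am (log2 difference 0.91 ± 0.18, limma adjusted p = 0.00648). Col4a2, of basement membranes, and Mfap5, of elastic microfibrils, were the others, at 0.72 and 0.98. The summed signal of the list was 58495 to 71432 at 12pm and 40636, 65528 and 60830 at 8am, so only 8am a lay below the 12pm arrays. Array 8am a was also the lowest of its time in the sums of smooth muscle (69432, against 105440 and 114534), endothelial (3093) and fat cell (3797) markers, and its part in these results was not tested. Of 14 smooth muscle markers 2 were lower, against 5.17% of all genes, and the list median was 0.05. These were Acta2 (-0.54, and -0.06 after quantile normalization) and the factor Myocd (-1.04). Lyz2, lysozyme of macrophages, was higher (1.05 ± 0.25), as 1 of 14 macrophage members (7.14%, near the 5.55% of all genes). Of 12 endothelial markers 2 were higher, Tie1 (1.24 ± 0.27) and Cldn5, against 5.55% of all genes, with a list median of 0.39. Of 7 squamous epithelium markers 2 were higher, Sprr1a and Krt14, against the same 5.55%. The summed signal of the 18 on the array was 6779, 2462 and 2925 at 12pm, high in 12pm a alone, and 1804 to 2181 at 8am. In the dark step Col6a3, Col4a2 and Mfap5 had log2 differences of 0.43, 0.27 and 0.23, and Acta2, Myocd and Lyz2 -0.08, -0.65 and 0.32. Tie1, Cldn5, Sprr1a and Krt14 had 1.29, 0.65, 0.73 and 1.24 there. All these genes thus had the sign of the light step.

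The calls of single genes depended on the arrays in the fit. The called genes followed here numbered 155. They came from both clock lists, the largest differences, the lowest p in the difference between the steps and every other list, with Ube2c added. Of the 155, 67 stayed past the threshold in limma whichever of the 12 arrays was left out. These held Tef, Nr1d2, Per3, Npas2, Mki67, Birc5, Pim3, Fxyd4, Pdia4, Pdia3, Sdf2l1, Pfn1, Psma4, Hnrnpl, Snrpe, Cela3b, Cyp2e1, Cldn23, Vip and Col6a3. The other 88 lost their call without at least 1 array, among them Canx, Zg16, Fcgbp, Clca1, Tac1, Kit, Cldn15, Cldn7, Cgn, Col4a2, Mfap5, Lyz2, Tie1, Cldn5, Sprr1a, Krt14, Acta2, Myocd, Lypd8, Pigr, Saa1 and Lyz1. Arrays 8am c and 12pm c ended the call most often. Probe sets of 1 gene also differed: 637 called genes had further probe sets above the filter, and of those 1164 sets 67.5% had the same sign as the set that stood for the gene, against 56.8% for genes not called. Of them 14.7% were called with that sign themselves.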

How the data were processed

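The authors deposited one table of signal intensity per probe set for 18 arrays, made with GCOS per the submitters' processing notes; its version and settings are not given in the sources used here. The deposited intensity is linear, with a trimmed mean of 500 in each array. Signals were analysed as log2(signal + 16). Of 45101 probe sets, 34945 carried 1 gene symbol in the platform annotation, 932 several, and 9160 were not listed. Probe sets at or above the 40th percentile of mean log2 signal over 18 arrays were kept, and the one with the highest mean stood for its gene, which gave 12870 genes. A group-means model over the 12 arrays of 8am, 12pm, 8pm and 12am was fitted in limma 3.58.1 (R 4.3.3) with a mean-dependent prior spread and Benjamini-Hochberg adjustment over all genes at 0.05. The fit has 8 residual degrees of freedom, and the number of arrays limits the precision.

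Genes named were, by rule, the tested members of both clock lists, up to 15 genes per direction with the largest difference, and, for every further list described, the 2 to 4 members whose adjusted p was lowest. The 15 had to be called, not overlap between times and pass with the same sign after quantile normalization, and clone names were counted but not named. Lists were described with at least 3 members called one way at 2 times the share of all genes, or as markers of the colon wall. As the difference between the steps called no gene, the 10 per direction with its lowest unadjusted p were taken. Other genes were named after their values were seen. Members and lists were chosen with earlier results of these data known. The fit was tested on simulated data with normal noise and known changes planted at 12pm. For planted log2 changes of 0.5, 1 and 2, it called 10.3%, 43.2% and 93.8% in the light step. In the difference between the steps it called 1.28%, 18.9% and 72.9% of them. The 0 calls in that difference therefore do not show that the steps are alike.

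Alternatives covered the added constant, the normalization, the filter, the summary over probe sets, the moderation, array weights, the arrays in the fit and leaving out each array.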

Additional observations from a re-analysis of the deposited data

How the results depend on the processing

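Of the counts, that of 1380 genes between 12pm and 8am became 2123 when every probe set was tested, 182 with all 18 arrays and 3507 with array weights, and lay between 527 and 1886 when 1 array was left out. That of 2802 genes between 12am and 8pm became 4418 with every probe set and 623 with all 18 arrays, and lay between 1399 (without 8pm a) and 2818. The difference between the steps, 0 calls, had 18 with array weights and 0 to 5 without 1 array. The core clock, 7 calls, had 2 with all 18 arrays and 3 to 8 without 1 array. Mitosis, 5 lower, had 2 with all 18 arrays, 16 with array weights and 2 to 9 without 1 array, with a median of -0.86 to -0.45. For single genes all alternatives were run on both clock lists, the largest differences and the lowest p in the difference between the steps. Other named genes did not go through all of them. Among the called genes so covered, the sign turned in Rora (-0.02 for the mean over probe sets) and Sp6 (-0.11 with a constant of 1). It also turned in clock genes that were not called, such as Wee1, Per2, Per1, Hlf and Ciart. The cause was not tested. With the letter of the array as a replicate block, 1149 genes were called between 12pm and 8am, 1115 of them shared, 2565 between 12am and 8pm and 0 in the difference. Same-letter deviations from the group means correlated at -0.16, -0.29 and -0.12 between 12pm and 8am. Between 12am and 8pm they correlated at 0.06, -0.03 and -0.06. With 3 arrays per time these values cannot show whether arrays of a letter share handling. A set of arrays with a Gapdh ratio under 2, chosen after seeing the data, added only 4pm a and 4am c to the 12 arrays of the fit. Each stands alone at its time and adds nothing to the spread, so that fit could not show an effect of RNA integrity. Low signals have no call of presence here, which limits folds against dim groups.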

Other observations

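Antigen presentation genes of MHC class II, which show peptides to helper T cells, had a positive log2 difference at 12pm in 10 of 10 tested members, with a median of 0.42, but 0 were called and in 0 did the groups separate. Their median in the dark step was 0.40. Of 14 tested markers of B and plasma cells 0 were called, with a median of 0.39, and the summed signal was 8588 to 11209 at 12pm and 5247 to 16482 at 8am, which overlap. Glucocorticoid targets had 0 of 17 called and a median of 0.10 in the light, with 4 lower and 1 higher in the dark and a median of -0.37 there. These counts are from limma at an adjusted p under 0.05. At that threshold 5.55% of all genes were higher and 5.17% lower in the light step, and 11.6% higher and 10.1% lower in the dark step. The 3 arrays of 12pm lay all above the 3 of 8am in 20% of all genes.

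In the Notch, BMP and Hedgehog list 1 of 23 members was higher and 2 lower in the light, against 5.55% and 5.17% of all genes. The median there was -0.05, and 9 were lower in the dark, against 10.1% of all genes. Jag1, a Notch ligand, had 310, 267 and 317 at 12pm and 700, 649 and 692 at 8am (log2 difference -1.15 ± 0.16, limma adjusted p = 0.000765), with 449, 358 and 411 at 12am and 591, 617 and 584 at 8pm. Its 2 dimmer probe sets had 0.38 and -0.79 and were not called. Tph1, which makes serotonin in enteroendocrine cells, had 471, 586 and 513 at 12pm and 253, 253 and 248 at 8am (1.01 ± 0.19). Pou2f3, the master factor of tuft cells, had 391, 399 and 488 at 12pm and 189, 184 and 89 at 8am (1.44 ± 0.29). Jag1, Tph1 and Pou2f3 did not overlap between 12pm and 8am. In the dark step Tph1 and Pou2f3 had log2 differences of 1.13 and 1.1, with the same sign as in the light.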
